A study of Mus musculus with 16 samples.

Results

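Transferrin (Trf), the plasma and brain carrier of ferric iron, and 7 genes that handle the iron it delivers were followed in adult neural stem cells lacking the fragile X protein FMRP and in wild-type cells. The named genes were Trf, Tfrc, Slc11a2, Ftl1, Fth1, Slc40a1, Aco1 and Ireb2, and 7 of these 8 had a row among the 20409 genes measured; Fth1, which encodes the ferritin heavy chain, was not analysed here. Trf was chosen by its KO and WT RNA and footprint levels in these same libraries, so those values and their ratio are given below as a description, without a test. The other members were included for their function in iron handling.

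Cells take up iron by binding iron-loaded transferrin to the transferrin receptor (Tfrc), taking the pair into endosomes and passing the released iron to the cytosol through the transporter DMT1 (Slc11a2). Iron that is not used at once is stored inside ferritin shells, built of light (Ftl1) and heavy (Fth1) chains, and ferroportin (Slc40a1) is the known exporter of iron from mammalian cells. The iron regulatory proteins IRP1 (Aco1) and IRP2 (Ireb2) bind stem-loops called iron-responsive elements when iron is scarce: at the 5′ end of the ferritin mRNAs this blocks translation, and in the 3′ end of the Tfrc mRNA it protects the message from decay. In the brain, transferrin mRNA is best known from oligodendrocytes and the choroid plexus.

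The cultures came from dentate gyri of FVB/N males aged 8 to 10 weeks, either Fmr1 -/y (KO) or wild-type littermates (WT), and were grown in Neurobasal medium with B27 supplement, 20 ng/ml EGF and 20 ng/ml FGF2. B27 itself supplies transferrin protein, in KO and WT cultures alike. All cultures received 100 µg/ml cycloheximide, an inhibitor that holds ribosomes on mRNA, for 10 min before harvest. Each lysate was divided between ribosome profiling, which sequences the mRNA fragments shielded by ribosomes (footprints), and cytoplasmic RNA-seq. The 4 groups were KO footprints, WT footprints, KO RNA and WT RNA, with 4 libraries each from 4 independently isolated cultures per genotype; how many mice went into a culture is not given in the sources used here. Footprint reads of either genotype carried a molecular identifier, which was 5 nt long for replicates 1 and 2 but 8 nt long for replicates 3 and 4. The Fmr1 deletion is carried by the whole animal, so cultures are descended from mice that lacked FMRP throughout life.

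Depth over genes ranged from 9397586 to 17147612 estimated counts in footprint libraries and from 5330018 to 6580305 in RNA libraries. Fmr1 itself had 19.7 ± 7.14 CPM (counts per library total, scaled to a fixed sum) in KO footprints and 143.9 ± 9.87 CPM in WT footprints, and 13.3 ± 11.8 CPM in KO RNA and 52.6 ± 34.9 CPM in WT RNA (SD, n = 4 each). Of 12 neural stem cell markers, 11 averaged over 5 CPM in every group, and their summed footprints were 7440 to 10600 CPM in KO and 9900 to 13000 CPM in WT; Prom1 was the marker under that level. The marker levels did not go against the labelled cell type. Levels below are CPM scaled by the trimmed mean of M-values (TMM) within each assay, and fold changes are log2 values of KO over WT from edgeR's quasi-likelihood test, with Benjamini-Hochberg adjustment over all genes tested and a call at an adjusted p under 0.05. P-values measure the spread between these 4 cultures per genotype. Of the 7 genes with a row, 6 passed the filter on low counts in every fit, and Slc40a1 did not.

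Transferrin was the member whose level separated KO from WT. Trf (chromosome 9, positions 103208876 to 103230286, GRCm38) had 474, 259, 1062 and 422 CPM in KO footprints of replicates 1 to 4, against 25.8, 46.2, 99.8 and 73.7 CPM in WT footprints. Its RNA stood at 496, 176, 929 and 424 CPM in KO libraries and at 20.8, 34.8, 90.4 and 68.9 CPM in WT libraries. Every KO library lay above every WT library in both assays. The lowest KO value was 2.60 times the highest WT value in footprints and 1.94 times in RNA. Mean footprints were 554 ± 351 CPM in KO and 61.4 ± 32.3 CPM in WT, and mean RNA was 506 ± 314 CPM in KO and 53.7 ± 31.7 CPM in WT (SD, n = 4 each). Of all genes tested, 1.06% had KO footprints entirely above WT footprints and 0.694% had KO RNA entirely above WT RNA.

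**Figure D1:**
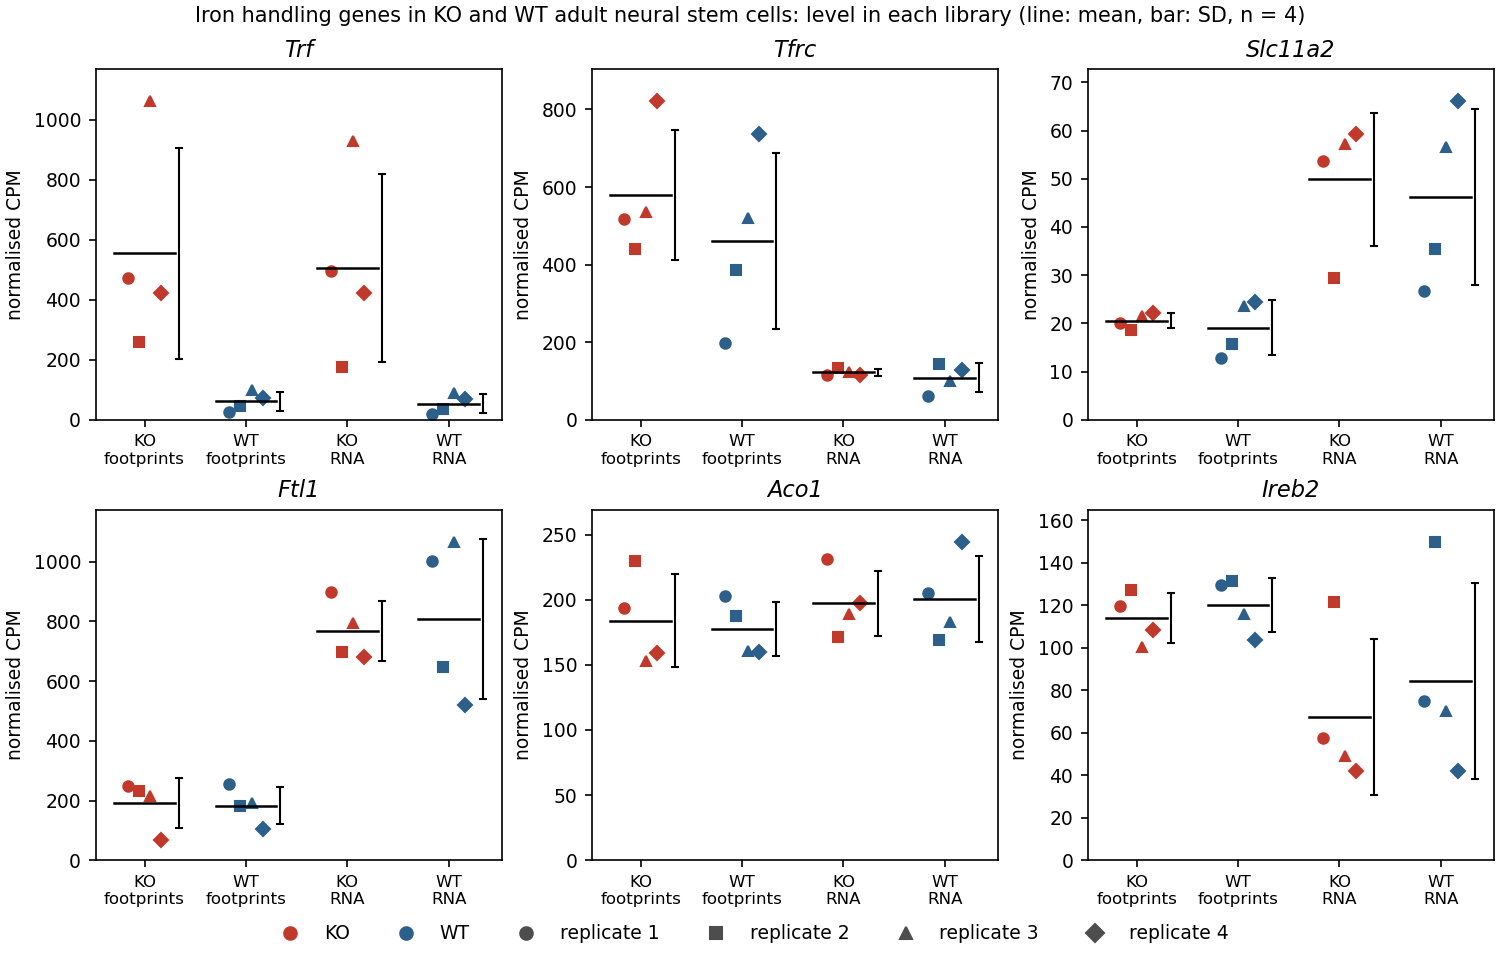
Normalised CPM (y axis, from 0) of the 6 iron handling genes with enough counts, in KO footprints, WT footprints, KO RNA and WT RNA. Red points are KO and blue points WT libraries, symbols give the replicate, horizontal lines are means and bars SD (n = 4). Trf is the gene whose KO libraries all lie above its WT libraries, while Tfrc, Slc11a2, Ftl1, Aco1 and Ireb2 overlap between genotypes in each assay.

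The fitted log2 fold change of Trf was 3.22 (SE 0.37) in footprints and 3.23 (SE 0.59) in RNA. In order from the most positive fold change it was 18th of 11472 genes tested in footprints and 10th of 11097 in RNA. The fold differed between replicates more than between assays. Within replicate pairs, KO over WT was 18.4, 5.6, 10.6 and 5.73 in footprints and 23.8, 5.05, 10.3 and 6.14 in RNA. Replicate 3 held the highest Trf level of its genotype in each of the 4 groups, and replicate 1 had the lowest WT level, which gave that pair its large fold. Within replicates 1 and 2 the log2 fold change was 3.34 in footprints and 3.55 in RNA. Within replicates 3 and 4 it was 3.09 in both, so each set of replicates gave a value of this size. In footprints these sets differed in identifier length and in cultures, which cannot be told apart here.

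Footprints per RNA for Trf overlapped between KO and WT cultures. The ratio of footprint CPM to RNA CPM, for which all 16 libraries were scaled together, was 1.15, 1.77, 1.32 and 1.15 in KO cultures and 1.42, 1.55, 1.30 and 1.26 in WT cultures. The ranges overlapped, and the means were 1.35 ± 0.292 in KO and 1.38 ± 0.131 in WT (SD, n = 4 each). The fitted difference of the footprint and RNA log2 fold changes was -0.01 (SE 0.71). With each culture as a block, because its footprints and RNA came from the same lysate, it was -0.06 (SE 0.15). The estimate without the block ran from -0.26 to 0.31 when single cultures, with both their libraries, were left out.

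Per unit length, the place of Trf in the order of genes differed between genotypes. The deposited TPM, a length-scaled abundance rounded to whole numbers, averaged 239 in KO footprints and 25.5 in WT footprints, which placed Trf 810th among all genes in KO and 4877th in WT. In RNA the mean TPM was 242 in KO and 25.8 in WT, with ranks of 697 in KO and 6304 in WT. In KO footprints the TPM ranges of Trf and Tfrc overlapped, whereas in WT footprints Tfrc averaged 175 TPM and had no TPM range in common with Trf. Ireb2, next above Trf in WT footprints at 37.5 TPM, overlapped it.

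Because Trf is abundant in oligodendrocytes and choroid plexus, markers of those cells were read beside it; in a bulk culture, fewer cells of a type and less RNA per cell cannot be told apart. Of 12 markers of myelinating oligodendrocytes, 3 averaged over 5 CPM in each group, Cnp and Bcas1 among them. The summed footprints of that list ranged from 187 to 477 CPM in KO and from 127 to 762 CPM in WT, and its summed RNA from 148 to 264 CPM in KO and from 96.2 to 415 CPM in WT. The summed levels overlapped between genotypes. Myelin basic protein (Mbp) averaged 0.372 CPM in KO footprints and 0.0632 CPM in WT footprints. Its RNA averaged 0.753 CPM in KO and 3.57 CPM in WT. Mog, a surface protein of myelin, had 0 counts in all footprint libraries and 5 counts over KO RNA and 2 over WT RNA. The 7 markers of oligodendrocyte precursors summed to between 1440 and 1730 CPM in KO footprints and between 1280 and 2090 CPM in WT footprints, and these ranges overlapped. Within that list Olig1 averaged 963 CPM in KO footprints and 943 CPM in WT footprints, and Olig2 459 CPM in KO and 483 CPM in WT. Nkx2-2, a transcription factor of the lineage, averaged 3.4 CPM in KO and 41.0 CPM in WT footprints, and Cspg4, a surface proteoglycan, 155 CPM in KO and 260 CPM in WT. For both, KO lay above WT in 0 of 4 pairs in either assay. Pdgfra averaged 6.35 CPM in KO and 12.3 CPM in WT footprints, Gpr17 0.626 CPM in KO and 1.62 CPM in WT, and Sox10 had 28 counts over KO footprints and 3 over WT footprints. None of 7 choroid plexus markers reached 5 CPM in any group, the list summed to at most 2.11 CPM in KO and 0.908 CPM in WT footprint libraries, and its marker Ttr had 32 counts over KO footprints and 3 over WT footprints. In KO footprints of replicates 1 to 4, Sox10 had 1, 0, 11 and 16 counts and Ttr had 1, 1, 12 and 18. Nearly all KO counts of both genes thus came from replicates 3 and 4. The part of these cell types in the Trf difference was not tested.

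The gene whose profile over the 16 libraries was nearest to that of Trf was Bcas1, itself one of the oligodendrocyte markers. Likeness was measured as the root mean square difference of log2 CPM after centring each gene within its assay, over 9430 genes with a mean of at least 5 CPM in both assays. The difference was 0.814 for Bcas1, against a median of 1.79 over all these genes. Bcas1 averaged 61.5 CPM in KO footprints and 12.3 CPM in WT footprints, and 47.4 CPM in KO RNA and 8.89 CPM in WT RNA. Next came Anxa6, a calcium-dependent membrane-binding annexin, at 1.02, with means of 611 CPM in KO and 246 CPM in WT footprints. Coro2b, a coronin that binds actin, followed at 1.08, with 91.5 CPM in KO and 4.6 CPM in WT footprints. Camkmt, a methyltransferase that modifies calmodulin, stood at 1.14, with 32.1 CPM in KO and 10.8 CPM in WT footprints. Them6 stood at 1.17, with 19.7 CPM in KO and 10.0 CPM in WT footprints. These genes were selected because their values follow those of Trf, so their own genotype differences carry no test here.

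**Figure D2:**
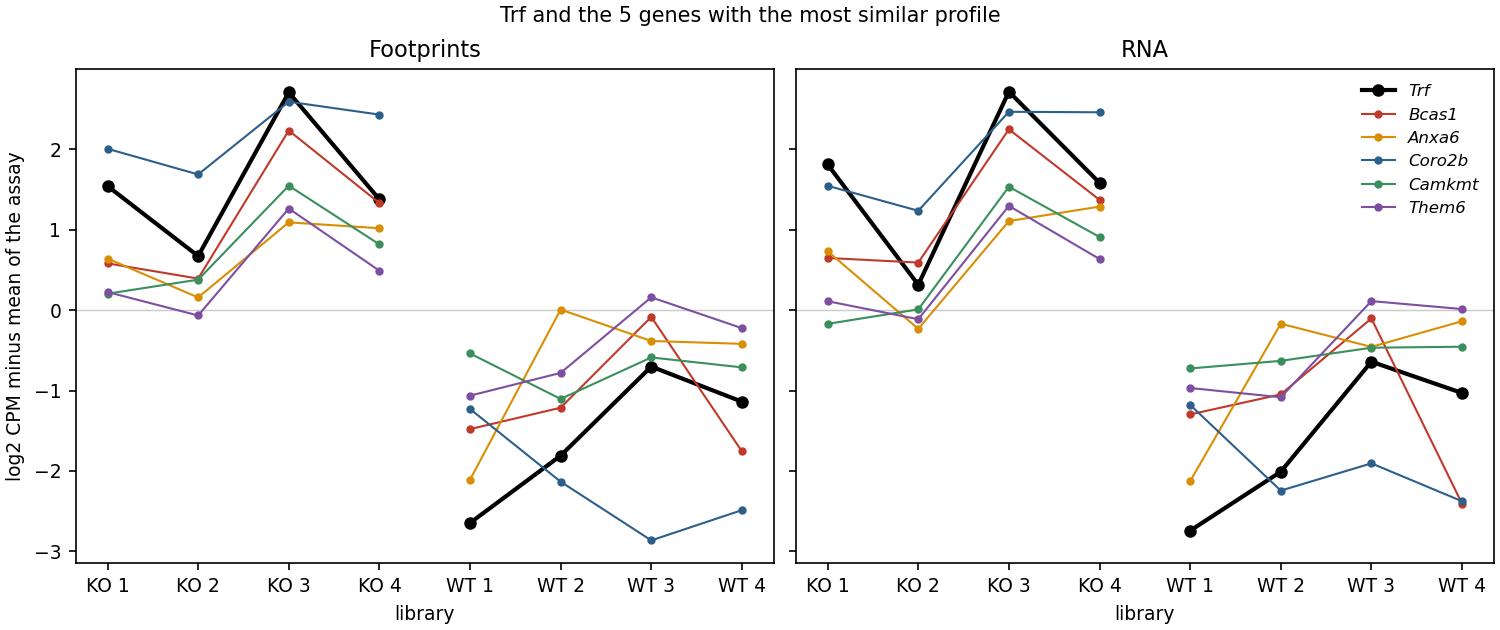
Log2 CPM minus the gene's mean in that assay (y axis) for Trf (black, thick) and the 5 genes with the smallest difference to it, in the 4 KO and then the 4 WT libraries (x axis) of footprints (left panel) and RNA (right panel). Lines join the values of one gene within a genotype and imply no order of replicates. Trf and Bcas1 are both highest in replicate 3 of each genotype, while Trf is lowest in WT 1 and Bcas1 in WT 4, in both panels.

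The receptor for transferrin did not separate by genotype. Tfrc (chromosome 16, positions 32608896 to 32632794, GRCm38) had 518, 440, 536 and 822 CPM in KO footprints, against 198, 386, 520 and 737 CPM in WT footprints. In RNA it had 116, 133, 124 and 115 CPM in KO libraries and 61.6, 144, 101 and 129 CPM in WT libraries. The groups overlapped in both assays, with WT replicate 1 the lowest library in each. KO footprints were above WT in 4 of 4 replicate pairs, by 2.61-fold in pair 1 and by 1.03 to 1.14-fold in the others. The log2 fold change was 0.41 (SE 0.27, adjusted p = 0.999 by edgeR) in footprints and 0.16 (SE 0.27, adjusted p = 1.00 by edgeR) in RNA. Without WT replicate 1 the footprint value was 0.19 and the RNA value was -0.04.

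The endosomal iron transporter was measured at low level. Slc11a2 (chromosome 15, positions 100387898 to 100424209, GRCm38) had 20.1, 18.6, 21.5 and 22.2 CPM in KO footprints, against 12.8, 15.7, 23.6 and 24.5 CPM in WT footprints. Its RNA had 53.6, 29.4, 57.2 and 59.3 CPM in KO libraries and 26.8, 35.4, 56.6 and 66.1 CPM in WT libraries. The KO footprints lay inside the range of the WT footprints, and RNA overlapped as well. The log2 fold change was 0.15 (SE 0.16) in footprints and 0.11 (SE 0.34) in RNA, and neither passed the test. Within replicates 3 and 4 alone these values were -0.14 and -0.07.

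Ferritin light chain had the highest mean TPM of the members in every group, although in footprints its range overlapped that of the next member, Trf in KO and Tfrc in WT. Ftl1 (chromosome 7, positions 45457944 to 45459886, GRCm38) had 250, 232, 215 and 69.3 CPM in KO footprints, against 255, 181, 191 and 105 CPM in WT footprints. Its RNA had 897, 698, 796 and 680 CPM in KO libraries and 1003, 646, 1067 and 519 CPM in WT libraries. Replicate 4 was the lowest library of each genotype in footprints, and KO and WT overlapped in both assays. The log2 fold change was 0.04 (SE 0.35) in footprints and -0.07 (SE 0.26) in RNA, and neither passed the test. Without KO replicate 4 the footprint value was 0.30. RefSeq lists 3 pseudogenes of Ftl1 (Ftl2-ps, Ftl1-ps2 and Ftl1-ps1), none with a row here, and reads that match both the gene and a pseudogene may have been assigned to either, so the Ftl1 level is uncertain.

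The iron exporter was at the limit of detection. Slc40a1 (chromosome 1, positions 45908070 to 45926532, GRCm38) had 5 counts summed over the 4 KO footprint libraries and 3 over the 4 WT footprint libraries. RNA held 1 count over KO and 2 over WT libraries. Its deposited TPM was 0 in all 16 libraries. It did not pass the filter on low counts, and no fold is given for so few counts.

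Neither iron sensor passed a genotype test. Aco1 (chromosome 4, positions 40143265 to 40199009, GRCm38), which acts as the enzyme aconitase or as IRP1 depending on its iron-sulfur cluster, had 194, 230, 153 and 159 CPM in KO footprints and 202, 187, 161 and 160 CPM in WT footprints. Its RNA had 231, 172, 189 and 197 CPM in KO libraries and 205, 169, 183 and 245 CPM in WT libraries. The highest and lowest of the 8 RNA libraries differed by 1.45-fold, a spread wider than that of only 4.49% of genes, and the genotypes overlapped. The log2 fold change was 0.04 (SE 0.11) in footprints and -0.02 (SE 0.19) in RNA, and neither passed the test.

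Ireb2 (chromosome 9, positions 54862658 to 54912534, GRCm38), which encodes the iron regulatory protein that is itself degraded when iron is plentiful, was even in footprints and uneven in RNA. Its footprints were 120, 127, 101 and 108 CPM in KO and 129, 131, 116 and 104 CPM in WT libraries. Its RNA was 57.7, 122, 49.0 and 41.8 CPM in KO and 75.1, 150, 70.1 and 42.0 CPM in WT libraries. Across the 8 libraries the highest footprint value was 1.31 times the lowest, against a median of 2.12 over all genes, and the highest RNA value was 3.59 times the lowest, against a median of 2.51. Replicate 2 was the highest RNA library of both genotypes. KO RNA lay below WT RNA in 4 of 4 pairs, yet the groups overlapped, and the log2 fold change was -0.32 (SE 0.46) in RNA and -0.08 (SE 0.10) in footprints, neither past the test. The unpaired RNA estimate was 0.13 without WT replicate 2 and -0.78 without KO replicate 2. Each of these fits kept the high replicate 2 of the other genotype. An RNA fit that matched KO and WT cultures by number gave -0.30 (SE 0.14, adjusted p = 0.813 by edgeR), also not past the test.

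Set against the whole transcriptome, few genes passed the genotype tests at all. In RNA, 1 gene was called higher in KO (0.00901% of 11097 tested) and 0 lower; in footprints, 3 were called higher (0.0262% of 11472) and 1 lower (0.00872%). Of the 5 members tested apart from Trf, 0 passed in either assay by edgeR, 0 had an unadjusted p under 0.05, and 0 passed by DESeq2, so their count is near that of the background. Over all genes that unadjusted level was reached in RNA by 0.802% in the KO-higher and 1.07% in the KO-lower direction, and in footprints by 2.06% and 2.54%. None of the 5 had KO libraries entirely above or entirely below WT libraries; over all genes 0.837% lay entirely below in footprints and 0.577% in RNA. In the test of translational efficiency, the change in footprints relative to RNA, 0 of 10863 genes were called in either direction by edgeR. An unadjusted p under 0.05 was reached by 7 genes in each direction (0.0644% each). That is far fewer than such a level gives by chance, so this fit was conservative. It carried no culture term, although footprints and RNA of a culture came from the same lysate. The same 5 members again gave 0 calls by edgeR, 0 at an unadjusted p under 0.05 and 0 by DESeq2. Their ratios of footprints to RNA all overlapped between KO and WT, where 0.368% of genes had KO entirely above WT and 0.414% entirely below. Their log2 differences in translational efficiency were 0.26 (SE 0.40) for Tfrc, 0.26 (SE 0.50) for Ireb2, 0.13 (SE 0.44) for Ftl1, 0.07 (SE 0.22) for Aco1 and 0.05 (SE 0.40) for Slc11a2. With each culture as a block the SE of these members lay between 0.17 and 0.27, and 0 of 10863 genes were called.

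The members spanned a wide range of footprints per RNA. This was tested in WT cells as footprints over RNA, with the culture as a block because both libraries of a culture came from one lysate; TMM scaling sets the typical gene near 0, so a value is relative to that gene. Footprint and RNA libraries were also prepared by different methods, and RNA reads cover the untranslated parts that footprints mostly lack. Of the 5 members tested apart from Trf, 2 were called higher in footprints and 2 lower, where 35.9% of 11323 genes were called higher and 33.5% lower, so a call alone does not set members apart, and the sizes are what follow.

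Tfrc had the highest ratio. Its footprint CPM was 5.35, 3.96, 4.98 and 8.23 times its RNA CPM in KO cultures and 3.68, 3.14, 6.09 and 6.73 times in WT cultures. The WT log2 ratio was 2.18 (SE 0.21, adjusted p = 5.7e-06 by edgeR), above that of 93.5% of genes. Its size differed between sets of replicates, at 1.72 in replicates 1 and 2 only and 2.57 in replicates 3 and 4 only. These sets differed in cultures as well as in identifier length. All 8 cultures were above 3, and the genotypes overlapped.

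Ftl1 lay at the opposite end. Its ratio was 0.335, 0.399, 0.311 and 0.118 in KO cultures and 0.291, 0.328, 0.211 and 0.238 in WT cultures. The WT log2 ratio was -1.97 (SE 0.15, adjusted p = 1.5e-06 by edgeR), and 6.76% of genes lay below it. For Ftl1 too the size differed, at -1.74 in replicates 1 and 2 only and -2.27 in replicates 3 and 4 only. By TPM, Ftl1 ranked 25th in KO RNA and 21st in WT RNA, but 501st in KO footprints and 527th in WT footprints. All 8 cultures were under 0.4.

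**Figure D3:**
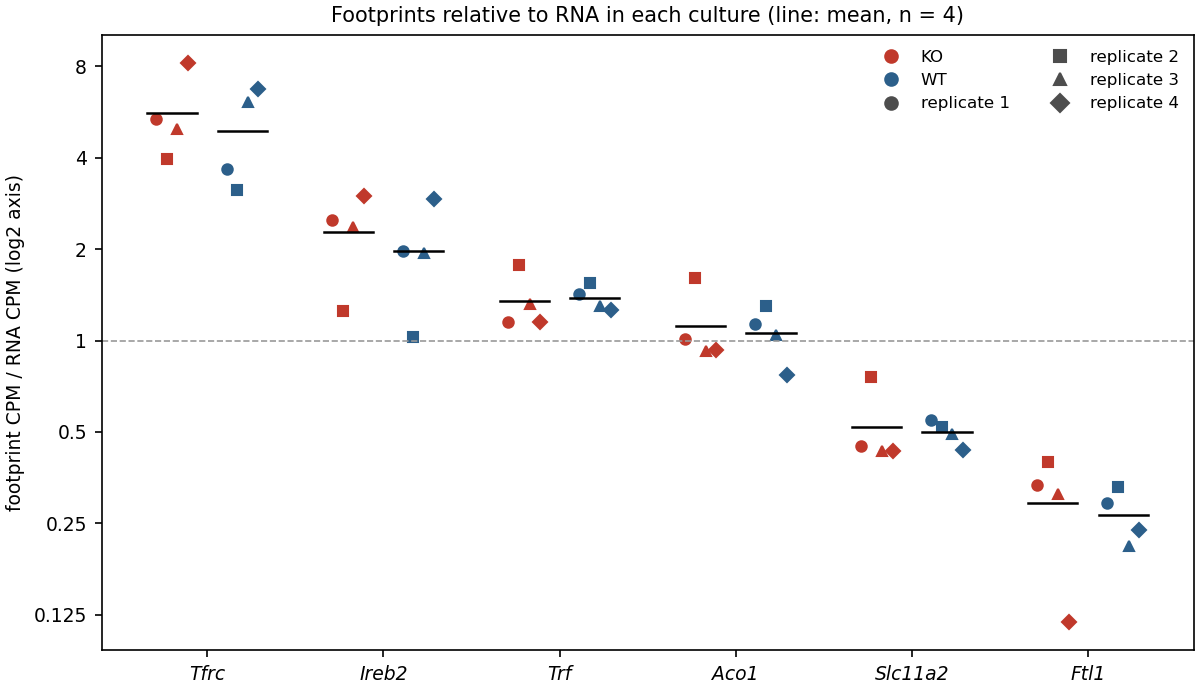
Footprint CPM divided by RNA CPM of the same culture (y axis, log2 scale) for the 6 genes, KO (red) left of WT (blue), with symbols for the replicate, lines for the means (n = 4) and a dashed line at 1. Tfrc lies above 3 and Ftl1 under 0.4 in all 8 cultures, and the KO and WT ratios of each gene overlap.

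Slc11a2 also had few footprints for its RNA, with ratios of 0.450, 0.756, 0.433 and 0.431 in KO cultures and 0.547, 0.518, 0.493 and 0.437 in WT cultures. Its WT log2 ratio was -1.06 (SE 0.15, adjusted p = 1.2e-04 by edgeR). Ireb2 had ratios of 2.49, 1.25, 2.36 and 2.99 in KO cultures and of 1.97, 1.03, 1.95 and 2.92 in WT cultures, with replicate 2 the lowest in both. Its WT log2 ratio was 0.83 (SE 0.22, adjusted p = 0.0064 by edgeR), and the call was lost without WT replicate 1 (adjusted p = 0.0529 by edgeR) and without the block (adjusted p = 0.151 by edgeR). The WT log2 ratio of Trf was 0.42 (SE 0.14), given as a description. Aco1 had as many footprints as its RNA level gives for the typical gene, at 0.01 (SE 0.15, adjusted p = 0.950 by edgeR).

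Genes with a described iron-responsive element were read from 2 short lists. Of the genes listed with a 5′ element, 3 were tested, and 2 had footprints below RNA: Ftl1, given above, and Epas1, a hypoxia-inducible transcription factor, at -1.46 (SE 0.21, adjusted p = 1.0e-04 by edgeR). Of 4 tested genes listed with a 3′ element, Tfrc was higher, Slc11a2 and the phosphatase gene Cdc14a (-1.29, SE 0.20, adjusted p = 1.9e-04 by edgeR) were lower, and the kinase gene Cdc42bpa was at -0.27 (SE 0.30, adjusted p = 0.428 by edgeR). The median log2 ratio was -1.46 over the 5′ list and -0.67 over the 3′ list, against 0.04 over all genes tested.

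The wider set of iron genes held 62 genes of uptake, export, storage, sensing, mitochondrial iron use and haem metabolism, with the members among them, and 59 had a row. Apart from the members, 42 were tested in footprints and 41 in RNA, and 0 of these were called higher or lower in KO in either assay by edgeR. Of the 41 tested in RNA, Heph alone had an unadjusted p under 0.05, in the KO-higher direction that 0.802% of all genes reached. Of 42 tested in footprints, Heph and Alad were higher and Hmox1 was lower at that level, which 2.06% of all genes reached in the KO-higher and 2.54% in the KO-lower direction. The log2 fold change was within 0.5 of 0 for 39 of the 41 in RNA (95.1%, against 87.2% of all genes) and for 40 of the 42 in footprints (95.2%, against 88.5%). The median over the 41 genes in RNA was 0.05 and over the 42 in footprints 0.05, against 0.01 in both assays over all genes.

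**Figure D4:**
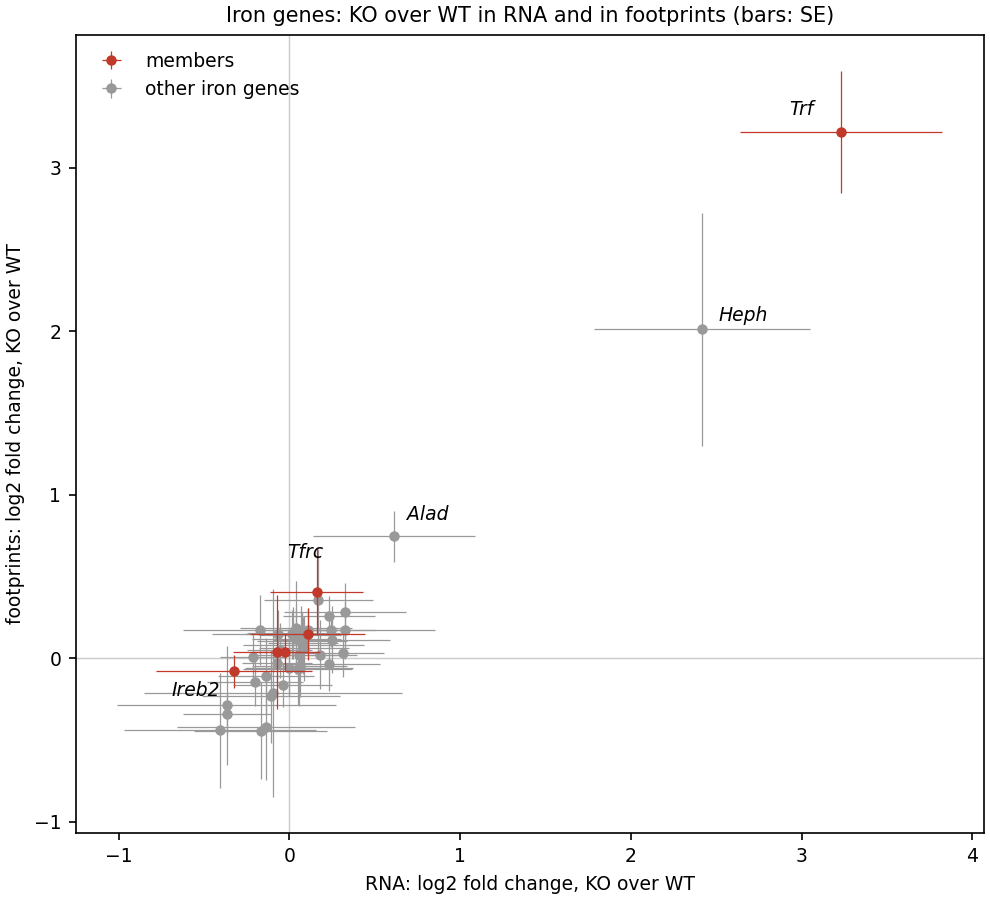
Log2 fold change of KO over WT in RNA (x axis) and in footprints (y axis) for the members (red) and the other genes of the wider iron list (grey) tested in both assays, with bars of 1 SE. Trf lies near 3.2 on both axes, Heph near 2 with bars of over 0.6, and most other genes near 0.

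Among iron oxidases that work with ferroportin, the membrane-bound hephaestin (Heph) was scarce, at 6.71 ± 3.43 CPM in KO footprints and 1.54 ± 1.31 CPM in WT footprints. Its RNA averaged 5.29 ± 3.05 CPM in KO and 0.957 ± 0.766 CPM in WT (SD, n = 4 each). KO was above WT in 4 of 4 pairs in both assays, and the log2 fold change was 2.01 (SE 0.71, adjusted p = 0.985 by edgeR) in footprints and 2.41 (SE 0.63, adjusted p = 1.00 by edgeR) in RNA, so it failed the correction. Ceruloplasmin (Cp), the other oxidase, averaged 273 ± 91.8 CPM in KO footprints and 382 ± 183 CPM in WT footprints, with log2 fold changes of -0.44 (SE 0.35) in footprints and -0.40 (SE 0.56) in RNA that did not pass. Alad, an enzyme early in haem synthesis chosen after its values were seen, averaged 82.9 ± 21.9 CPM in KO footprints and 50.2 ± 15.7 CPM in WT footprints. Its log2 fold change was 0.75 (SE 0.15, adjusted p = 0.407 by edgeR) in footprints and 0.61 (SE 0.47) in RNA, with KO above WT in 4 of 4 pairs in both.

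The haem-degrading enzyme Hmox1 averaged 68.9 ± 9.19 CPM in KO footprints and 87.1 ± 18.5 CPM in WT footprints, with a log2 fold change of -0.34 (SE 0.13, adjusted p = 0.999 by edgeR). Biliverdin reductase B (Blvrb) averaged 53.2 ± 3.01 CPM in KO and 44.5 ± 7.11 CPM in WT footprints, at a log2 fold change of 0.26 (SE 0.12). Pcbp1 and Pcbp2, RNA-binding proteins that also deliver iron to ferritin, stood at 0.17 (SE 0.11) for Pcbp1 and 0.17 (SE 0.13) for Pcbp2 on the same scale. Hspa9, a mitochondrial chaperone used in iron-sulfur cluster assembly, was at 0.12 (SE 0.19). Fbxl5, the ubiquitin ligase subunit that removes IRP2 in iron-replete cells, was at -0.06 (SE 0.17), the endosomal channel Mcoln1 at 0.02 (SE 0.21) and the metal importer Slc39a14 at -0.11 (SE 0.23). None of these passed the test.

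In WT footprints over RNA, 41 genes of the wider set were tested apart from the members, and 21 were called higher and 9 lower, where 35.9% of all genes were called higher and 33.5% lower. The median log2 ratio of the 47 tested with the members was 0.46, against 0.04 over all genes. By role, the mitochondrial iron genes had 11 higher and 2 lower of 16, with a median of 1.19, and the haem genes 6 higher and 4 lower of 14. With members counted, storage had 3 higher and 1 lower of 4, uptake 2 higher and 3 lower of 9, sensing 1 higher and 1 lower of 3, and export 1 higher of 1. The uptake counts include Trf, whose ratio is given here as a description. No difference between roles was tested. Cp stood at 1.87 (SE 0.18, adjusted p = 6.5e-06 by edgeR) and Hspa9 at 1.22 (SE 0.14, adjusted p = 2.7e-05 by edgeR). Fbxl5 was lower, at -0.98 (SE 0.18, adjusted p = 6.6e-04 by edgeR), as were Mcoln1 at -0.92 (SE 0.15) and Slc39a14 at -0.84 (SE 0.19). Pcbp1 at 0.81 (SE 0.14), Pcbp2 at 0.80 (SE 0.13), Hmox1 at 0.85 (SE 0.21) and Blvrb at 0.79 (SE 0.20) were called higher.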

How the data were processed

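Gene-level estimated counts and TPM were deposited by the authors for the 16 libraries (4 per group). RSEM 1.2.11, TopHat2 2.0.9, Bowtie2 2.1.0, cutadapt 1.7.1, bedtools 2.22.0 and the mm10 build are listed in the submitters' processing notes, with no roles. The deposited TPM are whole numbers, that is, a score rounded by the authors, and were used for levels between genes, ranks and an alternative test. Per the labels, footprint reads carried molecular identifiers. The authors' deposited table of their own comparisons was not used.

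Of 20436 rows, 27 named by a bare number (0.244% to 0.422% of counts) were left out, leaving 20409 genes. Estimated counts were rounded and fitted in R 4.3.3 by the quasi-likelihood method of edgeR 4.0.16 after filterByExpr and TMM scaling, with two-sided tests and Benjamini-Hochberg adjustment over all genes tested. The genotype fit of footprints and the fit of translational efficiency carried the identifier length as a term, and the latter used all 16 libraries. The fit of WT footprints over RNA carried the culture but no identifier term. The alternatives used DESeq2 1.42.0, limma 3.58.1 on log2(TPM + 1) and others given at the end. The pipeline was tested on simulated data. Coordinates come from RefSeq on GRCm38, matched by symbol. CPM for the tables of levels used TMM factors over all genes within an assay. The printed ratios of members had no pseudocount. A pseudocount of 0.5 CPM entered only the shares of all genes whose ratios did not overlap between KO and WT.

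Deviations from group means correlated between same-numbered KO and WT cultures (over genes, r in footprints was 0.379 to 0.540 and in RNA 0.481 to 0.613). All were above 0.1, so cultures of the same number were set side by side for the pair folds and the counts of pairs. The main genotype fits were not paired, and a replicate block entered only as an alternative. Differently numbered cultures gave r from -0.456 to 0.452 in footprints and from -0.542 to 0.368 in RNA. Some of these also passed 0.1, so that limit cannot establish pairing by number. In RNA the same-numbered values all lay above the others. In footprints KO replicate 2 was closer to WT replicate 1 (0.452) than to WT replicate 2 (0.379). What same-numbered cultures share is not given in the sources used here. The members and lists were chosen with earlier results of these data known. Named genes were all members, any wider-list gene past the threshold, the 2 most abundant non-members of each role in WT footprints, the 5 genes most like Trf, Fmr1 and fixed markers of other cells; some genes this rule names are not reported here.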

Additional observations from a re-analysis of the deposited data

Results flagged for a closer look

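A single culture stood apart in 2 of 36 sets of 4 values examined, and chance flags about 1 in 20. The Slc11a2 footprint to RNA ratio of KO replicate 2 was 0.756, against 0.431 to 0.450 in the other KO cultures. The Aco1 ratio of KO replicate 2 was 1.61, against 0.927 to 1.01 in the other KO cultures. Both come from the same culture.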

How the results depend on the processing

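Call counts over all genes were small and moved with the method. The RNA count (1 with edgeR) was 20 with DESeq2 (13 higher, 7 lower), 0 with the replicate block, 0 in replicates 1 and 2 only, 0 in replicates 3 and 4 only, and 4, 2 and 4 with limma on TPM (pseudocount 1, pseudocount 0.5, pseudocount 1 with no filter). The footprint count (4 with edgeR) was 82 with DESeq2 (56 higher, 26 lower), 0 with the replicate block, 0 in replicates 1 and 2 only, 2 in replicates 3 and 4 only, and 2, 1 and 2 with limma on TPM. Leaving out single libraries gave 0 to 1 RNA calls and 0 to 14 footprint calls (14 without KO replicate 4). Leaving out single cultures gave 0 to 0 calls for translational efficiency. For WT footprints over RNA, 7865 calls became 4879 without the block and 6772 to 8346 without single cultures. The cause was not tested.

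For the members other than Trf, 267 of 305 values under alternatives kept direction and call, 3 lost a call and 35 changed sign. Of 61 values of Trf, 4 changed sign, all in translational efficiency without single cultures. The replicate block, or the culture block for translational efficiency, changed no call of a member in the genotype fits. Sign changes in log2 fold change were in RNA Aco1 0.087 (replicates 1 and 2 only) and Slc11a2 -0.073 (replicates 3 and 4 only). In footprints they were Ftl1 -0.025 (block), -0.061 (replicates 3 and 4 only) and -0.012, -0.013 and -0.012 (the 3 TPM settings), Slc11a2 -0.14 and Aco1 -0.043 (replicates 3 and 4 only). In translational efficiency Slc11a2 gave -0.0015 (no identifier term) and -0.080 (replicates 3 and 4 only). In WT footprints over RNA Aco1 gave -0.021 (DESeq2 and RLE scaling) and -0.27 (replicates 3 and 4 only). Ireb2 kept no call there in replicates 1 and 2 only (adjusted p = 0.12, edgeR). With KO cultures in place of WT, the 5 members other than Trf kept direction and call.

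Without single libraries the values ran in RNA from -0.12 to 0.079 for Aco1, -0.24 to 0.084 for Ftl1, -0.78 to 0.13 for Ireb2, -0.085 to 0.33 for Slc11a2 and -0.038 to 0.34 for Tfrc. In footprints they ran from -0.028 to 0.073 for Aco1 and -0.32 to 0.30 for Ftl1. For translational efficiency and for WT footprints over RNA, single cultures were left out with both their libraries. In translational efficiency the values ran from -0.057 to 0.18 for Aco1, -0.21 to 0.34 for Ftl1 and -0.17 to 0.69 for Ireb2. They ran from -0.17 to 0.20 for Slc11a2 and -0.26 to 0.31 for Trf. In WT footprints over RNA they ran from -0.15 to 0.16 for Aco1. Trf stayed between 2.94 and 3.45 in footprints and between 2.76 and 3.60 in RNA. The number of cultures, 4 per genotype, limits the precision of these values, and for Slc40a1 the few counts allowed no comparison.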
